A study of Mus musculus with 6 samples.

Results

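ADAMTS proteases are secreted zinc metalloproteases with thrombospondin-type repeats, and 9 of their genes were followed here in the endothelium of mouse lymphatic vessels, whose cells are abbreviated LECs. The members were taken by symbol: every probe set whose platform annotation gave 1 gene symbol, and that symbol was Adamts1, Adamts2, Adamts4, Adamts5, Adamts7, Adamts9, Adamts10, Adamts12 or Adamts15. This gave 16 of 45037 tested probe sets, for 8 of 18193 genes, since no probe set carried the symbol Adamts2, which is not analysed here. Adamts5 had 4 probe sets, Adamts9 had 3, Adamts4, Adamts10 and Adamts12 had 2 each, and Adamts1, Adamts7 and Adamts15 had 1 each.

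The 6 arrays hold 3 samples of tumour-associated LECs and 3 samples of healthy LECs. Tumour-associated LECs came from xenografts of MDA-MB-435, 1 human cancer line whose origin is now given as melanoma rather than breast, grown under the skin and removed after 8 weeks. Healthy LECs came from mammary skin of balb-c/nude mice; nude mice are athymic, lack most T cells and keep other immune cells. Sections of both tissues had a brief stain for LYVE-1, which binds hyaluronan on lymphatic endothelium, before laser capture, and the RNA went through 1 round of Ribo-SPIA amplification before the array. The labels call the samples biological replicates and name no animal, age or sex, so p-values measure only the spread between these samples. The question is how lymphatic endothelium inside a tumour differs from that of healthy skin.

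The enzymes of this family fall into groups by what they cut. Adamts1, Adamts4, Adamts5, Adamts9 and Adamts15 encode proteases that cleave the large chondroitin sulphate proteoglycans aggrecan and versican. Adamts7 and Adamts12 encode a related pair that cleaves cartilage oligomeric matrix protein, and Adamts10 encodes a protein of the fibrillin microfibril system with little proteolytic activity. ADAMTS2 removes the amino-terminal propeptide of fibrillar procollagens. In lymphatic development the best known relative is ADAMTS3, which with the cofactor CCBE1 activates VEGF-C. ADAMTS1 is also known as an inhibitor of angiogenesis in blood vessels.

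The captures carried signal for lymphatic genes in both groups. All 10 measured markers of lymphatic endothelium exceeded background on at least 1 array, though 1 of them did so on 1 healthy array alone. Background was taken per array from 27 bacterial controls, as their 95th percentile (2.96 to 3.91, log2). Most genes met this criterion, since 4251 of all 18193 were above background on no array. Their linear signals, 1 probe set per gene, summed to between 2491 and 2890 in tumour-associated LECs and between 736 and 1445 in healthy LECs. Lyve1, the gene of the protein stained for, had 9.64, 9.41 and 9.65 (log2) in the tumour samples, against 3.21, 7.58 and 6.81 in the healthy samples, and healthy replicate 1 was below its background of 3.81. The lineage factor gene Prox1 averaged 6.86 ± 0.67 in tumour-associated LECs and 5.91 ± 1.25 in healthy LECs, and Pdpn, the gene of podoplanin, 8.22 ± 0.09 and 7.18 ± 0.85 in the same groups (log2, SD, n = 3 each).

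Signals of other cells were present too, and tumour replicate 3 stood apart in them. The 12 fibroblast markers summed to 1366 in tumour replicate 3, against 13426 and 15673 in tumour replicates 1 and 2 and between 8947 and 23642 in the healthy samples. The 11 pericyte and smooth muscle markers summed to 418 there, against 1863 and 1861 in the other tumour samples and between 649 and 966 in the healthy ones. The mean log2 of these markers was 4.94 there, against 5.85 and 6.32 in tumour replicates 1 and 2. It was 4.97 and 4.96 in healthy replicates 1 and 3, and higher in healthy replicate 2. Against the healthy samples, the low sum was thus not a general drop of these markers. Macrophage markers (12 genes) summed to 7015 in tumour replicate 2 and to between 1395 and 1777 on the other 5 arrays. Such sums are led by the brightest genes. The mean log2 of the macrophage markers was 5.59, 7.71 and 5.74 in the tumour samples, against 5.30, 5.58 and 5.04 in the healthy samples. Their differences were above 0 for 11 genes and below 0 for 1, while 10432 of all 18193 genes were above 0. Keratinocyte markers (13 genes) summed to between 409 and 2477 in tumour-associated LECs and between 3567 and 4465 in healthy LECs, and pan-endothelial markers (11 genes) to between 757 and 982 and between 262 and 309 in the same groups. No gene of these 5 lists was below background on every array, while among all genes 4251 of 18193 were above it on none. In such bulk captures, fewer cells of a type and less RNA per cell cannot be told apart.

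No ADAMTS probe set passed the test. In limma's fit over all 45037 probe sets, 0 of the 16 had a Benjamini-Hochberg adjusted p under 0.05, and the smallest was 0.558. The percentage of all probe sets called was 0.00444, which is 2 probe sets. At an unadjusted p under 0.05 there were 5 ADAMTS probe sets (background 6.36%), of which 4 were higher in tumour-associated LECs (2.83%) and 1 was lower (3.53%). These were both probe sets of Adamts4, 2 of the 4 of Adamts5 and 1 of the 2 of Adamts10. The same 5 were the ones whose 3 tumour values did not overlap with the 3 healthy values, as was the case for 11.1% of all probe sets (6.22% higher and 4.91% lower in tumour).

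Differences were above 0 for 14 of the 16 probe sets, against 55.5% of all probe sets. Their median was 0.53 on the log2 scale, against 0.06 over all probe sets. With each gene represented by its brightest probe set, 7 of 8 genes had a difference above 0, against 10432 of all 18193 genes. The median over the 8 genes was 0.64, against 0.08 over all genes. The share over all genes also belongs beside the counts above 0 in the related lists below. Without tumour replicate 3 the count above 0 was 10 of 16 (3 of the 4 that turned were above background on at most 2 arrays), and without any 1 of the other arrays it was 13 or 14. Of the 16 probe sets, 10 were above background on all 6 arrays (29.4% of all probe sets were), 5 on some of them, and 1, of Adamts12, on none (33.6%).

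**Figure D1:**
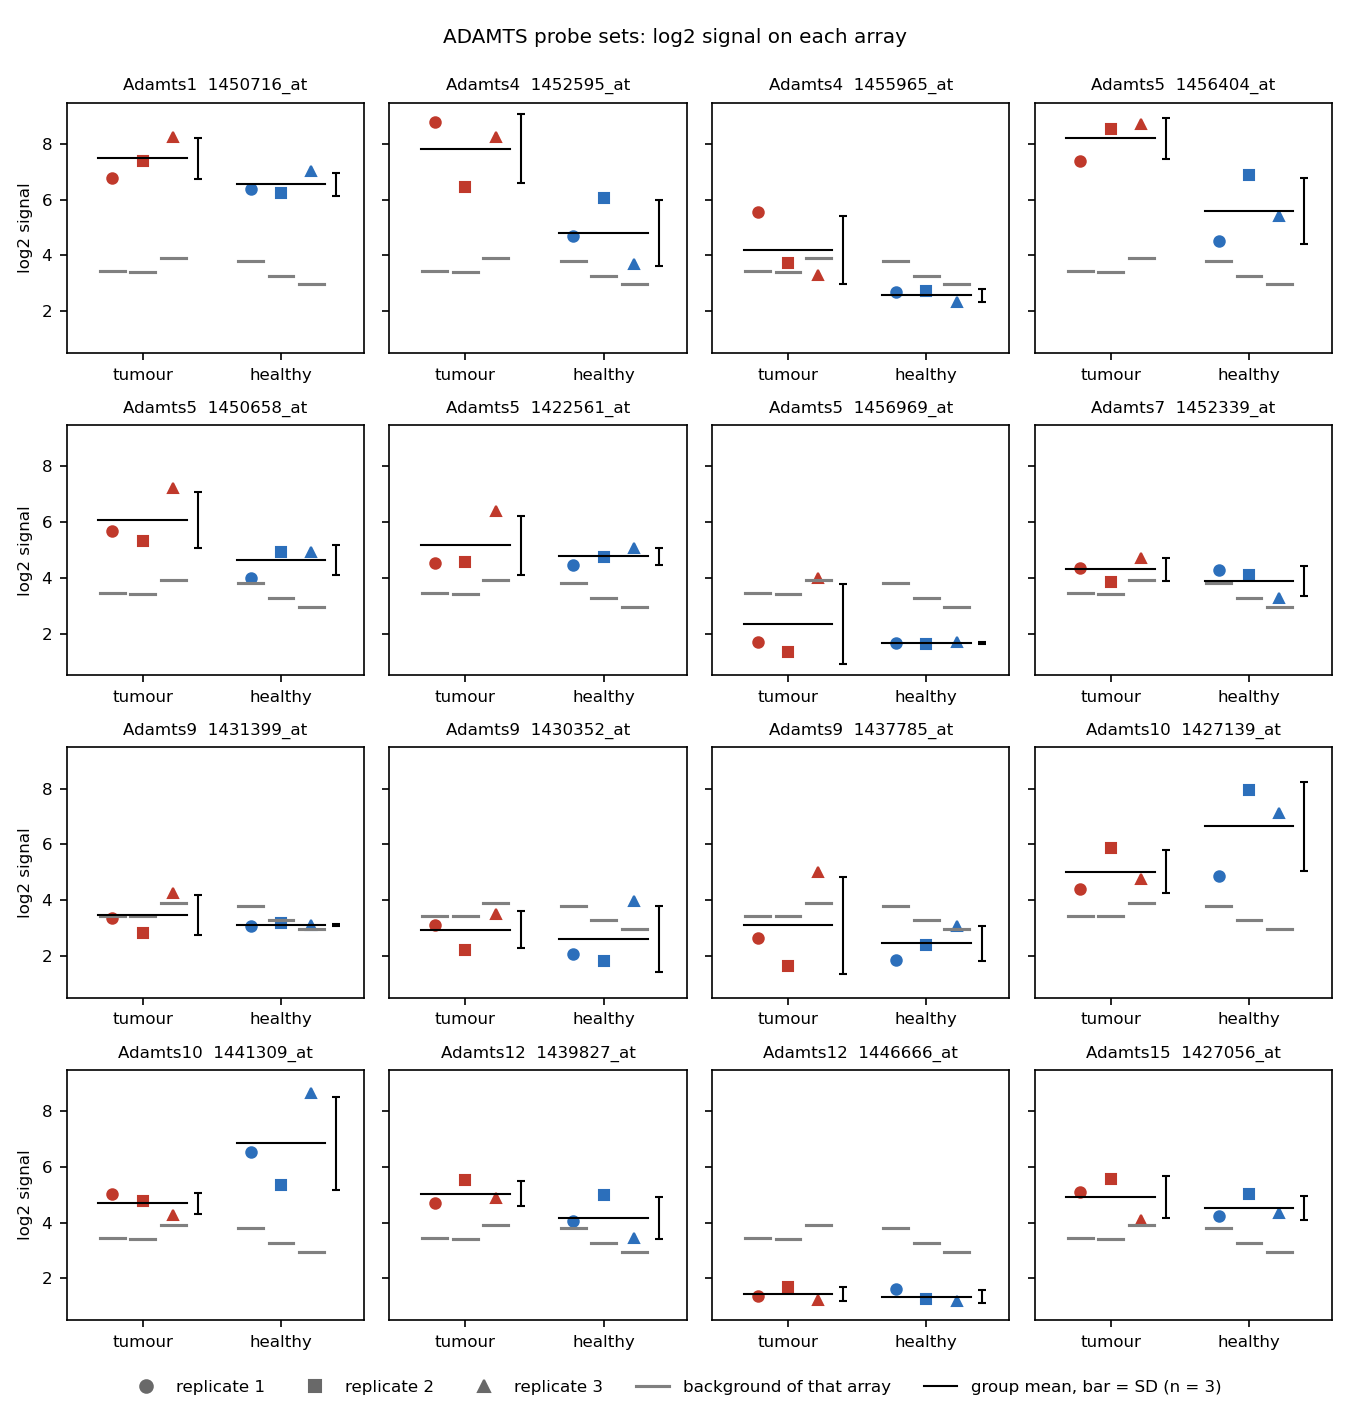
Log2 signal of the 16 ADAMTS probe sets on each array, 1 panel per probe set, with tumour-associated LECs on the left in red and healthy LECs on the right in blue. Symbols mark the replicate, grey dashes the background of that array, black lines the group means and bars the SD (n = 3); the tumour values lie above all healthy values in both Adamts4 panels and in Adamts5 1456404_at and 1450658_at, and below them in Adamts10 1441309_at.

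Adamts4 encodes aggrecanase-1, which cleaves aggrecan and versican. Its probe set 1452595_at had 8.80, 6.44 and 8.25 (log2) in the 3 tumour samples, against 4.70, 6.05 and 3.69 in the 3 healthy samples. All tumour values were above all healthy values, with tumour replicate 2 the lowest of its group and healthy replicate 2 the highest of the other. The means were 7.83 ± 1.24 in tumour-associated LECs and 4.82 ± 1.19 in healthy LECs (SD, n = 3 each), a log2 difference of 3.01 with a standard error of 0.79 and a 95% interval of 1.13 to 4.90 (limma adjusted p = 0.58). On the linear scale this is 8.08 times the healthy level. No setting without 1 array moved it below 2.45 or above 3.71.

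The second Adamts4 probe set, 1455965_at, was dim. It had 5.57, 3.72 and 3.30 in the tumour samples, against 2.68, 2.72 and 2.31 in the healthy samples. None of the healthy values and 2 of the 3 tumour values exceeded the background of their array. The measured means were 4.20 ± 1.21 in tumour-associated LECs and 2.57 ± 0.23 in healthy LECs (SD, n = 3 each), with a log2 difference of 1.62 (limma adjusted p = 0.727). Set against the background of each healthy array instead of the dim signal, the tumour mean was at least 1.80-fold higher, and the same rule gives each "at least" value here. That bound rests on tumour replicate 1, without which it was 1.12-fold (an alternative chosen after seeing the data) and the difference 0.94; with 16 added before log2 the difference was 0.72. The 2 Adamts4 probe sets correlated at r = 0.81 over the 6 arrays, a description over arrays that also differ by group.

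Adamts5 encodes aggrecanase-2, the main aggrecan-cleaving enzyme of mouse cartilage, which also cleaves versican. Its brightest probe set, 1456404_at, had 7.37, 8.52 and 8.72 (log2) in the tumour samples, against 4.52, 6.87 and 5.41 in the healthy samples. The groups did not overlap, and healthy replicate 2 was the closest to the tumour values. The difference of 2.60 between 8.20 ± 0.73 in tumour-associated LECs and 5.60 ± 1.18 in healthy LECs (SD, n = 3 each) had a 95% interval of 1.03 to 4.17 and did not pass (standard error 0.66, limma adjusted p = 0.558).

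The other Adamts5 probe sets gave smaller differences. Probe set 1450658_at had 5.68, 5.34 and 7.22 in the tumour samples, against 4.004, 4.93 and 4.94 in the healthy samples (log2 difference 1.45, limma adjusted p = 0.743). Its groups did not overlap, and without tumour replicate 3 the difference was 0.88. Probe set 1422561_at, which the annotation ties to the same source sequence, had 4.54, 4.58 and 6.39 in the tumour samples, against 4.47, 4.76 and 5.07 in the healthy samples, and its groups overlapped (log2 difference 0.40, limma adjusted p = 0.922). Within each array, the log2 signal of 1456404_at minus that of 1422561_at was 2.83, 3.93 and 2.34 in the tumour samples, against 0.06, 2.11 and 0.34 in the healthy ones, so that the probe sets of this gene differed unequally between the groups. The fourth, 1456969_at, was above background on 1 array, tumour replicate 3, where it had 3.997, and between 1.34 and 1.72 on the other 5. Without tumour replicate 3 the difference of 1422561_at was -0.21, and 1456969_at had no value above background.

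Adamts1, a neighbour of Adamts5 on chromosome 16 in the RefSeq annotation of GRCm38.p6, encodes a versican- and aggrecan-cleaving protease that also inhibits angiogenesis. Its only probe set, 1450716_at, was above background on every array. It had 6.77, 7.40 and 8.25 (log2) in the tumour samples, against 6.38, 6.24 and 7.02 in the healthy samples. The groups overlapped because healthy replicate 3 lay above tumour replicate 1. Means of 7.47 ± 0.74 in tumour-associated LECs and 6.55 ± 0.42 in healthy LECs (SD, n = 3 each) gave a log2 difference of 0.93, with a 95% interval of -0.14 to 1.99 (limma adjusted p = 0.824). Without tumour replicate 3 the difference was 0.54.

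RefSeq promoter sequences were at hand for Adamts1 and Adamts12 at a start site that coincides with the 5′ end of the gene, and the 120 bases before that start are shown for both because they are the measured members with such an entry and their letters near the start differ. Capitals mark TATAAA, the TATA box, and GGGCGG, the GC box, on either strand.
Adamts1, GRCm38.p6 chr16:85803114-85803233, minus strand: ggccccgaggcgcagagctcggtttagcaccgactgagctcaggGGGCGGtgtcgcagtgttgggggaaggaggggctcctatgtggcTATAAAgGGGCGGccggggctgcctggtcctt
Adamts12, GRCm38.p6 chr15:11064653-11064772, plus strand: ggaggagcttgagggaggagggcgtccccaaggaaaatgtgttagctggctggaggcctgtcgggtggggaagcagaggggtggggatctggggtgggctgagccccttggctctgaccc
The Adamts1 stretch holds a TATA box that starts 32 bases before the gene start and GC boxes that start 76 and 25 bases before it. No such letters occur in the Adamts12 stretch. In the 250 bases before each start, 12.4% of 32851 RefSeq promoters hold TATAAA and 32.7% hold GGGCGG. Searched in the same window on both strands, CCAAT (33.8% of promoters), the AP-1 letters TGACTCA or TGAGTCA (4.46%) and CATTCC (12.6%) were in neither. Such matches describe letters and are not evidence of binding.

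Adamts9 and Adamts15 complete the group of proteoglycan-cleaving members. All 3 probe sets of Adamts9, a protease of versican and aggrecan found in many developing tissues, were at or below background on most arrays. Probe set 1437785_at had 2.64, 1.64 and 5.02 (log2) in the tumour samples, against 1.86, 2.40 and 3.09 in the healthy samples, and only tumour replicate 3 and healthy replicate 3 were above their background. Probe set 1431399_at had 3.35, 2.84 and 4.26 in the tumour samples, against 3.09, 3.17 and 3.11 in the healthy ones, with the same 2 arrays above background. The third, 1430352_at, exceeded it in healthy replicate 3 alone (3.97). Log2 differences were between 0.33 and 0.65, and none passed (limma adjusted p = 0.908, 0.948 and 0.919 for 1431399_at, 1430352_at and 1437785_at). Without tumour replicate 3, no tumour value of Adamts9 was above background.

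Adamts15, whose product cleaves aggrecan and versican, was above background on all 6 arrays with 1427056_at. It had 5.09, 5.57 and 4.09 (log2) in the tumour samples, against 4.25, 5.02 and 4.33 in the healthy samples. Here tumour replicate 3 was the lowest of the 6 arrays, unlike for Adamts1, Adamts5 and Adamts9. The log2 difference was 0.39, with a 95% interval of -0.69 to 1.46 (limma adjusted p = 0.911). It was 0.059 without tumour replicate 2 and 0.80 without tumour replicate 3, and 0.24 and 0.63 without healthy replicates 1 and 2.

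The array of tumour replicate 3 held the highest value of 8 of the 16 ADAMTS probe sets. These were those of Adamts1 and Adamts7, all 4 of Adamts5 and 2 of the 3 of Adamts9. Those of Adamts9 and Adamts5 1456969_at were above background on at most 2 arrays. That array also had the highest background of the 6 (3.91). The share of all probe sets with their highest value there was not computed, so whether the count is particular to the family cannot be said. On the same array the fibroblast and the pericyte and smooth muscle sums were the lowest of all 6 (1366 and 418, against at least 8947 and 649 elsewhere), and so was the keratinocyte sum (409, against at least 1006). For pericyte and smooth muscle markers the mean log2 on that array was 4.94, close to the 4.96 of healthy replicate 3. Among them Cnn1 alone was highest there (5.12, log2), while Acta2 (5.11), Rgs5 (5.82), Pdgfrb (5.11) and Des (3.59) were lowest there. The rest lay between. The sum of lymphatic markers on that array, 2890, was the highest of the 6. The highest Adamts5 signal on 1456404_at (8.72) was on the array with the lowest fibroblast sum. With that array left out, higher fibroblast sums went with higher signals within each group, but the 2 tumour arrays left cannot show a trend. Fibroblast sums of 8947, 11034 and 23642 in healthy replicates 1, 3 and 2 went with 4.52, 5.41 and 6.87. Sums of 13426 and 15673 in tumour replicates 1 and 2 went with 7.37 and 8.52. The part of these other cell types in the differences between groups was not tested.

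**Figure D2:**
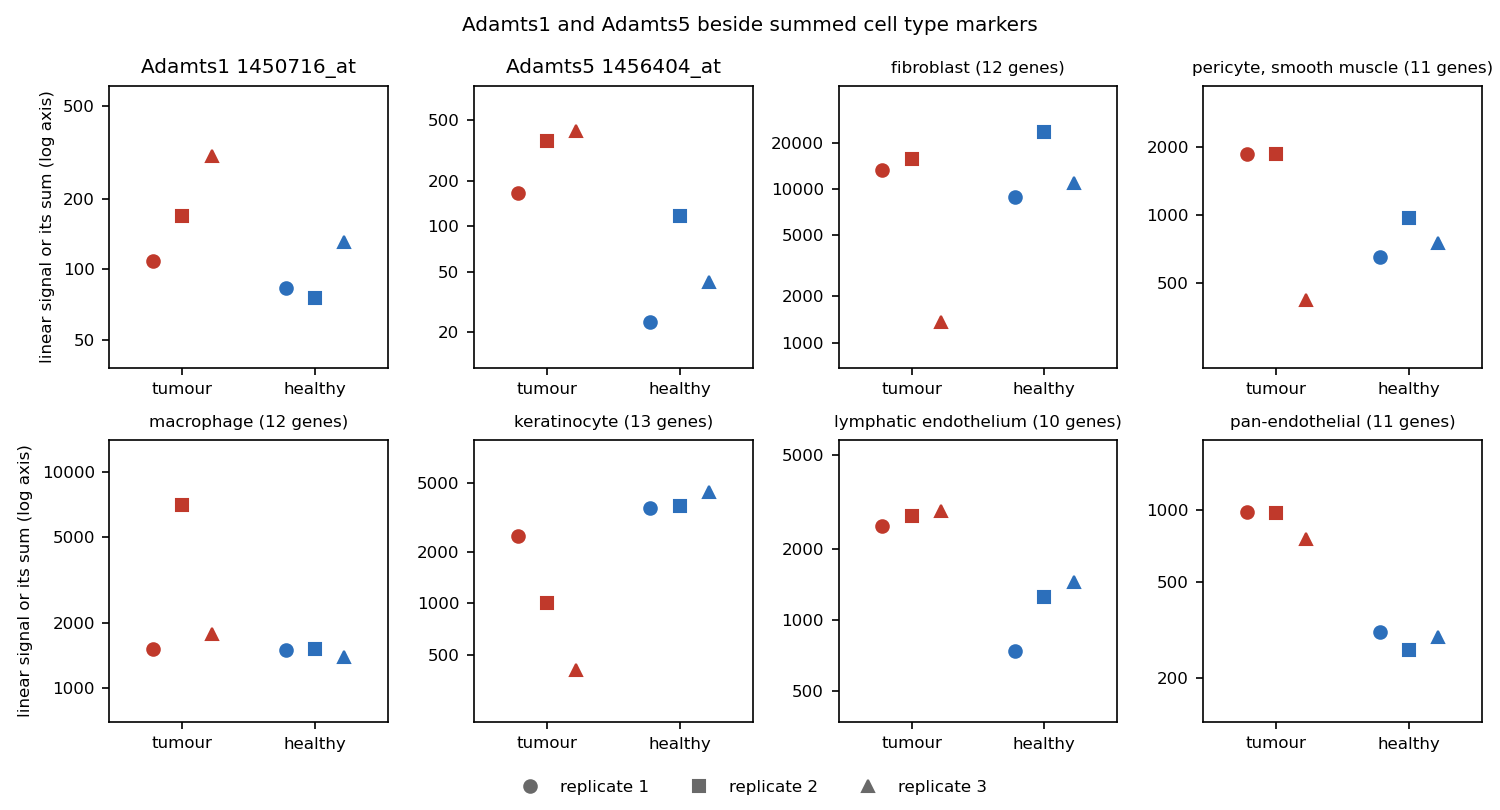
Linear signal of Adamts1 1450716_at and Adamts5 1456404_at and summed linear signal of 6 marker lists (1 probe set per gene) on each array, all on log axes, with tumour-associated LECs on the left in red and healthy LECs on the right in blue; symbols mark the replicate. Tumour replicate 3, the red triangle, is the highest for both genes and for lymphatic markers and the lowest for fibroblast, pericyte and smooth muscle, and keratinocyte markers.

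Adamts10 was the only measured member with differences below 0. Its product binds fibrillin-1 and promotes microfibril assembly. Probe set 1441309_at had 5.03, 4.76 and 4.28 (log2) in the tumour samples, against 6.54, 5.33 and 8.64 in the healthy samples. The groups did not overlap, and the healthy samples spread far more than the tumour samples. Means of 4.69 ± 0.38 in tumour-associated LECs and 6.84 ± 1.68 in healthy LECs (SD, n = 3 each) gave a log2 difference of -2.15, with a 95% interval of -4.05 to -0.25 (limma adjusted p = 0.729). Without healthy replicate 3 it was -1.25.

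The other Adamts10 probe set, 1427139_at, had 4.40, 5.88 and 4.77 in the tumour samples, against 4.87, 7.94 and 7.12 in the healthy samples. The groups overlapped through healthy replicate 1, and the log2 difference was -1.63, with a 95% interval of -3.57 to 0.31 (limma adjusted p = 0.839). Without healthy replicate 1 it was -2.51, and without healthy replicate 2 it was -0.98. Both probe sets were above background on every array, but they ranked the healthy samples differently: replicate 3 was highest on 1441309_at and replicate 2 on 1427139_at. The summed keratinocyte signal was higher in every healthy sample (3567 to 4465) than in any tumour sample (409 to 2477), although the groups overlapped for 6 of the 13 markers, among them Krt5 and Krt14, and its part in the Adamts10 difference was not tested.

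The difference between groups was also unequal for Adamts4 and Adamts10 within arrays, where scaling between arrays cancels. The log2 signal of Adamts4 1452595_at minus that of Adamts10 1427139_at was 4.40, 0.56 and 3.48 in the tumour samples, against -0.17, -1.89 and -3.43 in the healthy samples. For Adamts5 1456404_at minus Adamts10 1427139_at the values were 2.96, 2.64 and 3.95 in the tumour samples, against -0.35, -1.07 and -1.72 in the healthy samples. Every tumour sample was above every healthy sample in both ratios, which were picked after the values were seen and were given no test. Over the 6 arrays Adamts10 had negative correlations with Adamts4 (r = -0.57) and with Adamts7 (r = -0.63, the lowest of the 28 pairs of members), while Adamts5 with Adamts12 had the highest (r = 0.82); the arrays differ by group, and these values are a description.

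Adamts7 and Adamts12, the pair linked to cartilage oligomeric matrix protein, had overlapping groups on every probe set. Adamts7 (1452339_at) had 4.35, 3.86 and 4.70 (log2) in the tumour samples, against 4.27, 4.11 and 3.28 in the healthy samples, a difference of 0.41 (95% interval -0.50 to 1.33, limma adjusted p = 0.891). It was 0.64 and 0.22 without tumour replicates 2 and 3, and 0.11 without healthy replicate 3. Adamts12 (1439827_at) had 4.68, 5.54 and 4.86 in the tumour samples, against 4.05, 4.98 and 3.46 in the healthy samples. Its groups overlapped through healthy replicate 2, and the difference was 0.86 (95% interval -0.23 to 1.96, limma adjusted p = 0.848). It was 0.51 without healthy replicate 3, 0.37 with array weights and 0.50 with 16 added before log2. The second Adamts12 probe set, 1446666_at, stayed between 1.18 and 1.71 on all arrays, below background on each, and no fold is given for it.

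**Figure D3:**
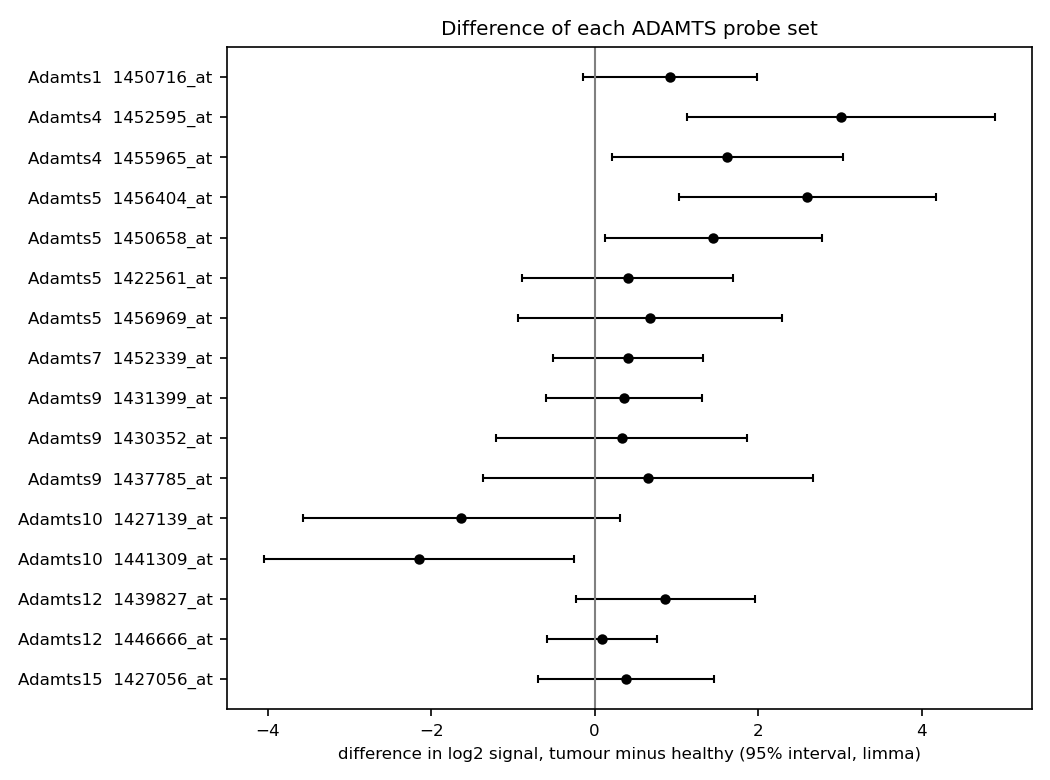
Difference in log2 signal, tumour-associated minus healthy LECs, for the 16 ADAMTS probe sets, with the 95% interval of limma's fit (horizontal axis, log2). The intervals of both Adamts4 probe sets and of Adamts5 1456404_at and 1450658_at lie above 0 and that of Adamts10 1441309_at below 0, before any adjustment for the 45037 probe sets tested.

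The other members of the family were mostly not above background. Of 10 further ADAMTS genes listed, 7 were measured, and 5 of them (Adamts3, Adamts8, Adamts18, Adamts19 and Adamts20) were at or below background on every array with their brightest probe set. Differences were above 0 for 4 and below 0 for 3, with a median of 0.14, and 0 passed (0 at an unadjusted p under 0.05 as well). Adamts3, the VEGF-C-activating protease, had 2.38, 2.97 and 2.91 (log2) in the tumour samples, against 2.32, 1.78 and 2.12 in the healthy samples on 1441693_at, all below background, so no fold is given. Adamts16, which was above background on all 6 arrays, averaged 4.15 ± 0.33 in tumour-associated LECs and 3.78 ± 0.38 in healthy LECs (SD, n = 3 each, limma adjusted p = 0.886).

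In the list for VEGF-C activation, the smallest p by brightest probe set was that of Flt4, the VEGF-C receptor gene and itself a lymphatic marker. Flt4 had 9.49, 9.63 and 9.57 (log2) in the tumour samples, against 7.30, 7.57 and 8.50 in the healthy samples (difference 1.77, limma adjusted p = 0.45). Ccbe1, the cofactor gene of ADAMTS3, was below background in all tumour samples on 1453918_at (3.11, 3.10 and 3.52). The healthy samples had 4.45, 5.16 and 2.96, with replicates 1 and 2 above background (at least 1.51-fold higher in healthy LECs, limma adjusted p = 0.865). The groups overlapped through healthy replicate 3, and the other Ccbe1 probe sets differed by between -0.82 and -0.11. Nrp2, the gene of a VEGF-C co-receptor, had a smaller p than Flt4 on 1435349_at, with 7.20, 7.82 and 7.17 in the tumour samples, against 4.90, 5.03 and 5.83 in the healthy samples (difference 2.15, limma adjusted p = 0.312). Its other 3 probe sets, the brightest included, differed by between -0.17 and 0.48, and this gene is named outside the rule. Of the 6 genes measured in this list, 4 had a difference above 0 and 0 passed, with 1 at an unadjusted p under 0.05.

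ADAMTS-like proteins share the non-catalytic domains of the family without the protease. All 7 listed genes were measured, 5 with a difference above 0, and 0 passed (1 at an unadjusted p under 0.05, which was lower), with a median of 0.18. Adamtsl3 had 3.16, 3.18 and 3.12 (log2) in the tumour samples, all below background, against 3.73, 4.17 and 3.64 in the healthy samples (at least 1.19-fold higher in healthy LECs, limma adjusted p = 0.756). Adamtsl5 had 5.04, 4.70 and 4.92 in the tumour samples, against 4.64, 4.14 and 3.60 in the healthy samples (difference 0.76, limma adjusted p = 0.804), but its other probe set differed by -0.82. Adamtsl1 differed by 0.57 on its brightest probe set and by 1.57 and 0.15 on the other 2 (limma adjusted p = 0.87, 0.369 and 0.98 in that order).

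Among 16 measured substrates, 11 had a difference above 0 and 5 below 0, with a median of 0.35, and 0 passed (1 at an unadjusted p under 0.05). That one was Fn1, the gene of fibronectin, with 9.04, 8.60 and 8.47 (log2) in the tumour samples, against 7.86, 6.74 and 5.62 in the healthy samples (difference 1.96, limma adjusted p = 0.63). Nid1, which encodes the basement membrane linker nidogen-1, had 7.75, 7.83 and 7.34 in the tumour samples, against 3.46, 8.08 and 5.04 in the healthy samples, where replicate 2 lay above all tumour values (difference 2.11, limma adjusted p = 0.843). Thbs1, the gene of thrombospondin-1, had 8.76 in tumour replicate 1, 5.77 and 5.05 in the other tumour samples and between 5.003 and 5.32 in the healthy samples (limma adjusted p = 0.87). Col2a1, a cartilage collagen gene, differed by 0.69 (limma adjusted p = 0.843). Vcan, the gene of versican, named here outside the rule as a substrate of the proteoglycan-cleaving members, differed by -0.78 on its brightest probe set, 1427257_at (limma adjusted p = 0.911). The values there were 4.95, 6.55 and 4.49 in the tumour samples, against 4.21, 7.46 and 6.67 in the healthy samples, and the 8 Vcan probe sets differed by between -1.27 and 0.97.

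Inhibitors and clearance receptors showed no shared direction that passed. By brightest probe set, 6 of 8 genes had a difference above 0, with a median of 0.32, and 0 passed (0 at an unadjusted p under 0.05). Timp1, a metalloprotease inhibitor gene, had 4.70, 8.58 and 3.21 (log2) in the tumour samples, against 3.47, 2.74 and 3.01 in the healthy samples. Its high value was that of tumour replicate 2, the array with the highest macrophage sum (7015), and the part of macrophages in it was not tested. Timp3, the main tissue inhibitor of ADAMTS4 and ADAMTS5, named here outside the rule for that role, had 9.06, 8.80 and 7.53 in the tumour samples, against 7.13, 8.56 and 7.48 in the healthy samples on 1449334_at (difference 0.74, limma adjusted p = 0.872). Timp2 differed by 1.32 on its brightest probe set (limma adjusted p = 0.872) and by between 0.19 and 1.10 on the others. Reck, a membrane-anchored inhibitor gene, was below background on every array. Lrp1, the endocytic receptor that clears ADAMTS4 and ADAMTS5, differed by -1.60 on its brightest probe set and by -0.05 on the other (limma adjusted p = 0.868 and 0.996).

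Enzymes that process the family had the smallest p of their list in Pcsk5 and Pcsk6, genes of proprotein convertases. On 1424605_at, the brightest of its 5 probe sets, Pcsk5 had 4.83, 4.28 and 4.03 (log2) in the tumour samples, against 3.14, 3.20 and 2.45 in the healthy samples. All 3 healthy values of this probe set were below background, and its tumour mean was at least 2.04-fold higher (limma adjusted p = 0.547). The other 4 Pcsk5 probe sets differed by between 0.19 and 0.80 with overlapping groups, and healthy replicate 2 was above background on 2 of them. Pcsk6 had 6.35, 7.23 and 6.09 in the tumour samples, against 5.68, 5.37 and 4.89 in the healthy samples (difference 1.24, limma adjusted p = 0.678). Furin, the convertase gene best known for removing ADAMTS propeptides, had 7.94, 7.52 and 7.41 in the tumour samples, against 7.15, 7.07 and 7.04 in the healthy samples (difference 0.54, limma adjusted p = 0.843). Groups did not overlap on the probe sets named for these 3 genes, as for 6.22% of all probe sets in that direction. Fbln1, the gene of fibulin-1, a cofactor of ADAMTS1, differed by 2.05 on its brightest probe set with overlapping groups (limma adjusted p = 0.87). Its other probe sets differed by 0.60 and 0.73. Of 8 genes, 6 were above 0 with a median of 0.86, and 0 passed (2 at an unadjusted p under 0.05).

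ADAM proteases, the membrane-bound relatives without thrombospondin repeats, had 7 of 10 genes above 0, a median of 0.44 and 0 that passed (2 at an unadjusted p under 0.05, 1 in each direction). Adam10, a sheddase of Notch and many other surface proteins, had 7.36, 7.71 and 8.39 (log2) in the tumour samples, against 5.97, 5.999 and 6.91 in the healthy samples (difference 1.52, limma adjusted p = 0.583), and its other 3 probe sets differed by between -0.15 and 2.62. Adam23, which lacks catalytic activity, had 4.09, 3.45 and 3.79 in the tumour samples, against 5.09, 5.69 and 6.43 in the healthy samples (difference -1.96, limma adjusted p = 0.449). The other Adam23 probe sets differed by -0.89 and -0.31. Adam9 differed by 1.38 and Adam33 by -0.87, both with overlapping groups (limma adjusted p = 0.868 for both).

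**Figure D4:**
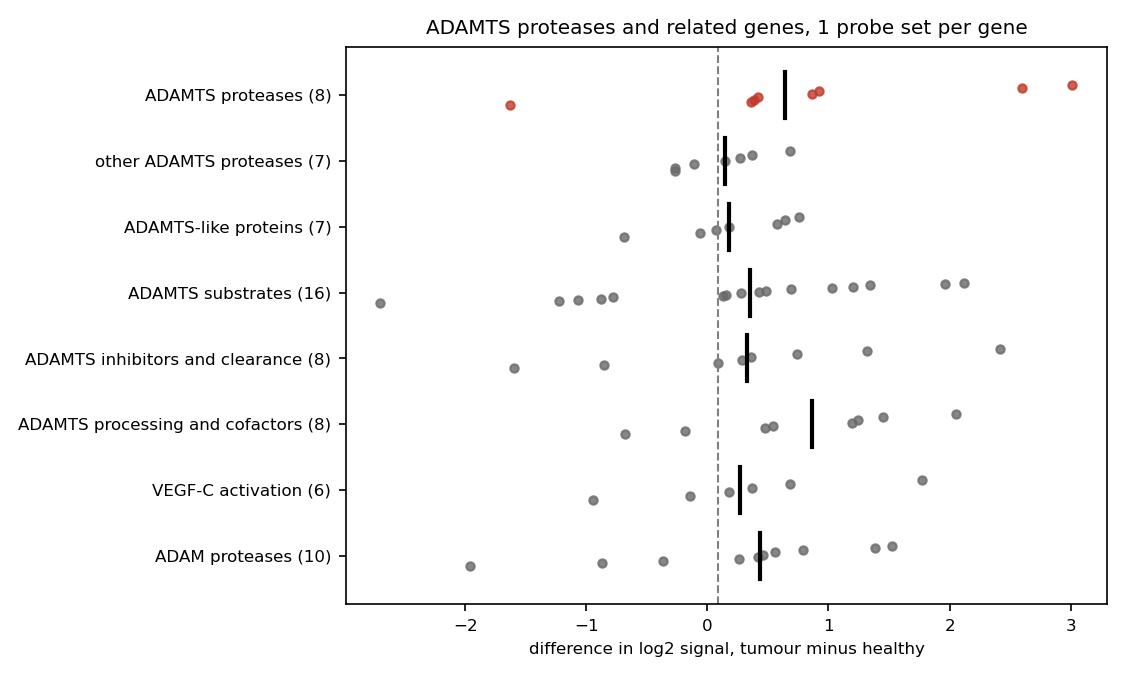
Difference in log2 signal, tumour-associated minus healthy LECs (horizontal axis), of each measured gene by its brightest probe set, for the 8 ADAMTS proteases (red) and 7 related lists (grey; number of genes in brackets). Black bars are list medians and the dashed line is the median over all genes (0.08); the bar of the ADAMTS proteases is at 0.64, with Adamts10 alone below 0.

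The genes whose values ran closest to those of Adamts5 were Plb1, Fcrls, Yipf1, Rab5c and Ccni, with Pearson correlations to Adamts5 1456404_at between 0.972 and 0.985 over the 6 arrays. They were the top 5 of 11007 genes above background on at least 3 arrays. With 6 arrays in 2 groups, so many genes searched make high values common, and no p is given. None of the 5 passed the comparison between groups, and their log2 differences were between 0.29 and 1.65.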

How the data were processed

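The authors deposited linear intensity values per probe set. The submitters' processing notes name RMA, which corrects background, quantile-normalizes the arrays and summarises probes; its software and version are not stated there. That the scale is linear was seen from array maxima of 31520 to 33063, beside array medians of 9.49 to 10.93 and no value below 0. Values were taken to log2 with no offset, and 64 control probe sets were left out. Symbols came from the platform annotation (34945 probe sets with 1 symbol, 932 with several, 9160 with none), and 34741 of the single-symbol ones matched RefSeq by Entrez identifier. Each gene was represented by its probe set with the highest mean over the 6 arrays; levels of different probe sets are set against each other only as differences within arrays, compared between groups.

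The test was limma 3.58.1 under R 4.3.3 (lmFit and eBayes, two-sided, no block), with Benjamini-Hochberg adjustment over all 45037 probe sets at 0.05, and was tested on simulated data. Between 39.6% and 56.0% of probe sets exceeded background per array, and the number of arrays limits the precision. Members and gene lists were chosen with earlier results of these data known. Genes given with values beside the members came from the 4 of each list with the smallest p by brightest probe set. Not all of these were named: Adamtsl2 and Vegfd were left out. Added to them were Lyve1, Prox1, Pdpn and Flt4, the 5 most like Adamts5, and Nrp2, Vcan and Timp3 outside that rule. Also outside it were the pericyte and smooth muscle markers Cnn1, Acta2, Rgs5, Pdgfrb and Des. Alternatives covered dim probe sets, quantile normalization, median centring, an offset of 16, a replicate block, eBayes options, array weights, a log2 fold minimum of 1, summaries per gene and each array left out.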

Additional observations from a re-analysis of the deposited data

How the results depend on the processing

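The count of ADAMTS probe sets that passed was 0 in all 15 alternative fits. The count over all probe sets, 2 in limma's fit as reported, was 21 with a filter on dim probe sets, 22 with array weights, 1 with trend and robust eBayes, 1 without moderation, and 0 after median centring, with 16 added before log2, with a replicate block and with a log2 fold minimum of 1. Leaving out 1 array gave 23 without tumour replicate 2 and 0 without any 1 of the other 5. The replicate block could not be said to pair the samples: deviations of same-numbered arrays correlated at 0.04, 0.10 and -0.01 for numbers 1, 2 and 3. Some alternatives leave the difference itself unchanged, so their values could not change sign. These are the filter on dim probe sets, the replicate block, the eBayes options, no moderation and the log2 fold minimum. Of 234 alternative values of single ADAMTS probe sets, those included, 228 kept their sign and 6 did not, all 6 with 1 array left out. Without tumour replicate 3 these were Adamts5 1422561_at (-0.21; -0.21 to 0.72 over the single arrays left out) and 1456969_at (-0.15 to 1.18) and Adamts9 1431399_at (-0.030 to 0.68) and 1437785_at (-0.31 to 1.38), each at the low end of its range; without that array, 1456969_at was below background throughout and no tumour value of Adamts9 was above it. Adamts9 1430352_at was lowest without healthy replicate 2 (-0.065 to 1.005), and Adamts12 1446666_at without tumour replicate 2 (-0.051 to 0.21). Adamts4 1452595_at ranged from 2.42 to 3.71, Adamts5 1456404_at from 1.73, with array weights, to 3.24, and Adamts10 1427139_at from -2.51 to -0.98. The median over the ADAMTS genes was 0.36 with array weights, 0.38 with 16 added, and up to 0.86, with the filter on dim probe sets. Without single arrays Adamts7 ranged from 0.11 to 0.64 and Adamts15 from 0.059 to 0.80. Signals near background limit what Adamts9 and the second probe sets of Adamts4 and Adamts12 can show.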
